A study of Mus musculus with 14 samples.

Results

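The organelle clearance genes are 9 mouse genes, most with known roles in the removal of mitochondria, other organelles, ribosomes and the nucleus at the end of red cell formation. They are Bnip3l, Ulk1, Map1lc3b, Alox15, Trim58, Trim10, Ube2o, Xpo7 and Foxo3. The members were chosen by name, and all 9 had a row among the 49583 genes of the deposited expression table. The series holds RNA sequencing of 14 samples from wild type C57BL/6 mice, 2 in each of 7 populations. Ter cells, sorted as Ter-119+CD45-Lin-, came from the spleen of tumour-bearing mice and from the liver of E14.5 embryos. The control, also from the spleen of mice with tumours, was sorted as CD45+Ter-119-. The other 4 populations came from bone marrow: HSC (c-Kit+Sca-1+Lin-), CLP (c-Kit+Sca-1+IL-7R+Lin-), MEP and CMP, both negative for lineage markers, IL-7R and Sca-1 and labelled c-Kit+FcγRlo, the MEP as CD34+ and the CMP as CD34-. The labels give a sort purity above 98% for every group and do not give the age of the adult mice, the kind of tumour or whether animals were pooled.

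Red cell precursors lose their nucleus by enucleation and become reticulocytes, which then destroy their remaining organelles. Mitochondria are engulfed by autophagosomes and delivered to lysosomes, ribosomes and many soluble proteins are tagged with ubiquitin and degraded, and chromatin is condensed before the nucleus is expelled. The 9 genes act at different steps: Bnip3l, Ulk1 and Map1lc3b in autophagy, Alox15 in oxidation of membrane lipids, Trim58, Trim10 and Ube2o in ubiquitin tagging or as members of ubiquitin ligase families, Xpo7 in transport out of the nucleus, and Foxo3 in transcription.

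Values are FPKM, fragment counts scaled to transcript length and library size, which the authors deposited as 1 mean per group. For both kinds of Ter cell and for MEP and CMP, the values of each of the 2 libraries could be recovered from the digits of the mean, at depths of about 13413500 to 28537900 fragments, and in each pair the deeper library is called A and the other B. Control, HSC and CLP were made by another procedure, have no recovered libraries and enter no test. Their values stand beside the others as levels only. Comparisons were tested with limma on log2(FPKM + 1) over 12957 genes, and a gene was called when its Benjamini-Hochberg adjusted p was under 0.05 and its log2 fold change was at least 1 in size. A fold change on this scale understates the change of a gene with low values. Whether samples of 1 group are separate animals is not stated, and the p-values measure only the spread between these samples. In bulk samples fewer cells of a type and less RNA per cell cannot be told apart.

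The marker genes went against some of the labels. Cd34 was at 0.0694 FPKM in the population labelled MEP, although its gate is given as CD34+, and at 29.7 FPKM in the population labelled CMP, whose gate is given as CD34-. The erythroid transcription factor genes Gata1 and Klf1 were at 0.928 and 1.26 FPKM in the first and at 6.02 and 4.22 FPKM in the second. The neutrophil gene S100a9 was at 84794 FPKM in the population labelled MEP. These 2 populations are therefore called labelled MEP and labelled CMP. In spleen Ter the summed level of 11 erythroid markers was 365 FPKM, against 7772 FPKM in liver Ter. Although the gate excluded CD45+ and lineage-positive cells, 9 neutrophil markers summed to 24547 FPKM against 280 FPKM. The 8 B cell markers summed to 1330 FPKM against 1.57 FPKM. In HSC and CLP, both labelled Lin-, the neutrophil markers summed to 11464 and 15334 FPKM. The B cell markers summed to 416 and 609 FPKM, and 11 macrophage and monocyte markers to 334 and 353 FPKM. The spleen Ter libraries also stood apart from each other: 22.2% of genes were over 2-fold apart in this pair, and 0.633% to 1.95% in the other 3 pairs. All 11 erythroid markers were higher in spleen library A (sum 686 FPKM) than in library B (sum 43.0 FPKM), and 10 of 11 macrophage and monocyte markers were higher in B (sum 1178 FPKM) than in A (sum 310 FPKM). Most of the members' spleen Ter results are therefore given with and without each library. Against labelled CMP, the fits of Bnip3l and Ube2o without library B are not given. For Xpo7 the levels are given by library.

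Across the 7 populations the organelle clearance genes were most abundant in Ter cells of embryonic liver. Their summed mean level was 1055 FPKM in liver Ter, 171 FPKM in spleen Ter and between 71.6 and 107 FPKM in the other 5 populations. Of the 9 genes, 7 had their highest mean in liver Ter. The exceptions were Map1lc3b, highest in spleen Ter at 40.9 FPKM, and Alox15, highest in HSC at 11.4 FPKM and lowest in liver Ter and the control, each at 0.359 FPKM. Trim10 led the group in liver Ter and Bnip3l led it in each of the other 6 populations. The population with the highest mean was the same for each of the 9 genes after quantile normalization of the columns and after scaling to totals without globin genes. Median-of-ratios scaling was applied to the recovered libraries only. With it Map1lc3b was not higher in spleen Ter than in liver Ter (log2 difference -0.22).

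**Figure D1:**
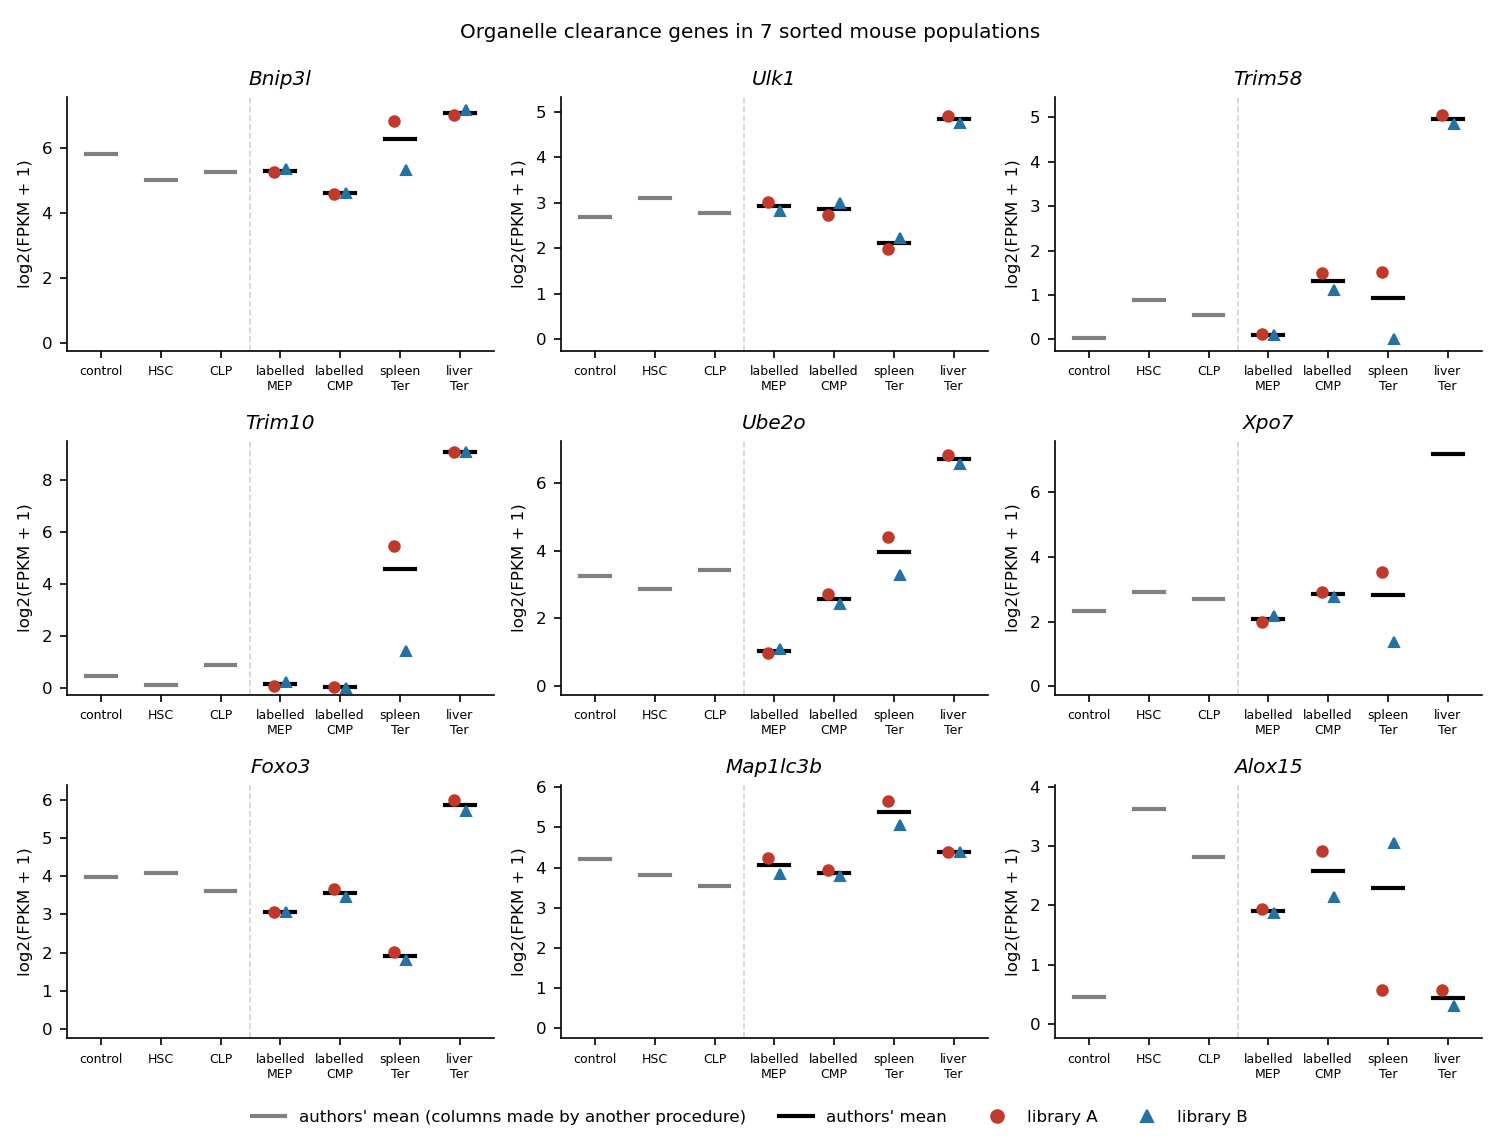
Level of each organelle clearance gene in the 7 populations, as log2(FPKM + 1). Bars are the authors' means, circles and triangles are libraries A and B where they were recovered, and the dashed line parts the columns made by another procedure from the rest. Trim10 reaches 537 FPKM in liver Ter, and the triangle of spleen library B for Trim58 lies at 0.

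Bnip3l (ENSMUSG00000022051, chr14:66985239-67008877, minus strand, GRCm38) encodes the outer mitochondrial membrane receptor, also called NIX, that brings mitochondria to autophagosomes in reticulocytes. Its level was 130 FPKM in liver library A and 143 FPKM in B, 113 and 39.5 FPKM in the spleen libraries, 37.2 and 39.8 FPKM in labelled MEP and 23.0 and 23.6 FPKM in labelled CMP. Both liver libraries lay above both spleen libraries, and spleen library B lay between the 2 labelled MEP libraries. The deposited means were 55.7 FPKM in the control, 37.1 FPKM in CLP and 31.5 FPKM in HSC. Bnip3l was thus detected at more than 20 FPKM in all 7 populations, with a 5.86-fold ratio between its highest and lowest mean. Its relative Bnip3, which encodes a related mitophagy receptor, stayed between 0.82 FPKM in labelled MEP and 6.48 FPKM in CLP, and its liver Ter mean was 1.79 FPKM.

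Ulk1 (ENSMUSG00000029512, chr5:110784488-110810097, minus strand) encodes the protein kinase that starts autophagosome formation. It was at 29.1 and 25.8 FPKM in the liver libraries A and B, 2.93 and 3.68 FPKM in the spleen libraries, 7.06 and 6.08 FPKM in labelled MEP and 5.64 and 6.92 FPKM in labelled CMP. Spleen Ter had the lowest Ulk1 of the 4 tested populations without overlap, while labelled MEP and labelled CMP overlapped. HSC, CLP and the control were at 7.62, 5.88 and 5.43 FPKM. The related kinase gene Ulk2 had the opposite order in Ter cells, with 0.317 and 0.372 FPKM in liver Ter and 2.30 and 7.12 FPKM in spleen Ter.

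Map1lc3b (ENSMUSG00000031812, chr8:121590361-121598760, plus strand) encodes LC3B, the ubiquitin-like protein that is attached to the growing autophagosome membrane. Its level was 49.2 and 32.6 FPKM in the spleen libraries A and B, 20.1 and 19.9 FPKM in liver Ter, 18.0 and 13.3 FPKM in labelled MEP and 14.2 and 12.9 FPKM in labelled CMP. The spleen libraries were above all others, and labelled MEP and CMP overlapped. The 7 means spanned 3.86-fold, the narrowest range of the 9 genes. Of the paralogs in the same family, Map1lc3a had the same order in Ter cells (23.1 FPKM in spleen and 2.95 FPKM in liver), Gabarapl2 was at 50.1 and 57.0 FPKM, and Gabarap was the most abundant in both, at 124 and 80.8 FPKM. Gabarapl1 was at 4.08 FPKM in spleen Ter and 11.5 FPKM in liver Ter, and reached 51.6 FPKM in HSC. The exons of Map1lc3b share 58 bases with Zcchc14 on the opposite strand, which was at 0.239 FPKM or less in Ter cells.

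Alox15 (ENSMUSG00000018924, chr11:70344152-70352031, minus strand) encodes a lipoxygenase that oxidises lipids within organelle membranes and is also made by eosinophils and some resident macrophages. It was at 0.486 FPKM in spleen library A, from 18 fragments, and at 7.31 FPKM in library B, from 261 fragments. The liver libraries held 0.485 and 0.232 FPKM, from 34 and 10 fragments. Labelled MEP had 2.83 and 2.66 FPKM and labelled CMP had 6.60 and 3.40 FPKM. The 2 spleen libraries lay on either side of labelled MEP and CMP, and library A matched the higher liver library. The control mean was 0.359 FPKM, against 6.06 FPKM in CLP and 11.4 FPKM in HSC. Among the relatives, Alox5 reached 89.4 FPKM in labelled MEP and Alox12, a platelet-type lipoxygenase, reached 3.65 FPKM in spleen Ter and stayed at 0.28 FPKM or less in the other 6 populations.

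Trim10 (ENSMUSG00000073400, chr17:36869574-36877833, plus strand) encodes a RING finger protein needed for the late differentiation of cultured red cell precursors. It was at 542 and 532 FPKM in the liver libraries and at 43.5 and 1.65 FPKM in the spleen libraries A and B. Labelled MEP held 0.0543 and 0.177 FPKM, from 3 and 8 fragments, and labelled CMP held 0.0304 FPKM from 1 fragment in A and none in B, where 3 fragments would be 0.0996 FPKM. The means of CLP, the control and HSC were 0.839, 0.381 and 0.0731 FPKM. Trim10 was the member most restricted in level to Ter cells, since no mean outside them reached 1 FPKM.

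Trim58 (ENSMUSG00000037124, chr11:58640465-58652404, plus strand) encodes a ubiquitin ligase that directs destruction of the motor dynein before enucleation. It was at 32.0 and 27.8 FPKM in the liver libraries A and B. In the spleen it was at 1.84 FPKM in library A, from 61 fragments, and at 0 in library B, where 3 fragments would be 0.0941 FPKM. Labelled CMP held 1.81 and 1.16 FPKM and labelled MEP 0.0926 and 0.0682 FPKM, from 5 and 3 fragments. Spleen library A was thus next to labelled CMP and library B below every other library. HSC, CLP and the control had means of 0.864, 0.459 and 0.030 FPKM.

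Promoters were available for 5 of the 9 members in the RefSeq promoter table (GRCm38.p6), each from 250 bases before the transcript start to 50 bases after it. Shown are the promoters of Trim10 and Trim58, whose means were both highest in liver Ter, and of Map1lc3b, whose mean was highest in spleen Ter. Capitals mark matches, on either strand, to AGATAA (bound by the factor of Gata1 and its relatives) or CCACCC (bound by KLF factors); no 2 matches overlap. The 3 promoters lie at chr17:36869324-36869623, chr11:58640215-58640514 and chr8:121590188-121590487, all on the plus strand.
Trim10: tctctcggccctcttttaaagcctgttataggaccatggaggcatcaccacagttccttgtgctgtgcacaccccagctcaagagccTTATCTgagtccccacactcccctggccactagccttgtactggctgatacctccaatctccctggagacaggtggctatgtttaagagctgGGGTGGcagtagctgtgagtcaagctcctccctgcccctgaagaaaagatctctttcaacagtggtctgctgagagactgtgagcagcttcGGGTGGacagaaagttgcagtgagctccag
Trim58: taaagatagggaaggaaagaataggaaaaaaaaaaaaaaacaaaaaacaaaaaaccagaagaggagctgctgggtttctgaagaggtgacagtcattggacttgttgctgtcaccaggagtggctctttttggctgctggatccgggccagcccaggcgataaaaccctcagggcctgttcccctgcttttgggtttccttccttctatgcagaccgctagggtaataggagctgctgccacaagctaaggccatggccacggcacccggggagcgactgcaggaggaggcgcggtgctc
Map1lc3b: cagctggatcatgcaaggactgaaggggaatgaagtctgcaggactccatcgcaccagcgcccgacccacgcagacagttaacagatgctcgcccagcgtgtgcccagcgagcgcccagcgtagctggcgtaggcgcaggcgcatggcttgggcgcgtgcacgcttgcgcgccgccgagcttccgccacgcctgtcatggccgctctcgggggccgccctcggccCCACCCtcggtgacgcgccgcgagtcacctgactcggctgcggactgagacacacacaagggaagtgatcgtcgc
Trim10 had 1 AGATAA match, on the reverse strand at -163 from the start, and 2 CCACCC matches, on the reverse strand at -71 and 20. Map1lc3b had 1 CCACCC match at -25. Trim58 had neither. Of the members not shown, Ulk1 had CCACCC at -158 and -129 and Foxo3 had neither. Of 32851 promoters of this length, 11.2% held AGATAA and 31.5% held CCACCC. The other 3 motifs searched on both strands, GTAAACA (FOXO factors, in 3.65% of promoters), CACGTG (7.15%) and TATAAA (13.6%), had no match in the 5 promoters. A match is a description of the letters and was not tested for binding.

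Ube2o (ENSMUSG00000020802, chr11:116537740-116581447, minus strand) encodes a large ubiquitin-conjugating enzyme that marks ribosomal and other proteins for removal in reticulocytes. It was at 113 and 93.6 FPKM in the liver libraries, 20.2 and 8.66 FPKM in the spleen libraries, 5.62 and 4.38 FPKM in labelled CMP and 0.98 and 1.12 FPKM in labelled MEP. The 4 populations did not overlap. CLP, the control and HSC were at 9.88, 8.52 and 6.25 FPKM. Ube2h, which encodes another conjugating enzyme raised in late erythroid cells, was at 53.2 FPKM in liver Ter and 14.4 FPKM in spleen Ter, with a control mean of 43.7 FPKM.

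Xpo7 (ENSMUSG00000022100, chr14:70654246-70766628, minus strand) encodes a nuclear export receptor linked to histone export and nuclear condensation in erythroblasts. Its mean in liver Ter was 143 FPKM, and between 3.22 and 6.62 FPKM in the other 6 populations. The spleen libraries held 10.6 and 1.58 FPKM, so that the labelled CMP libraries (6.62 and 5.84 FPKM) and the labelled MEP libraries (2.95 and 3.48 FPKM) lay between them. The 2 liver libraries could not be told apart, because 7 splits of the mean gave whole fragment counts, the most even being 146 and 141 FPKM. Xpo1, the general export receptor gene, was at 17.5 FPKM in liver Ter and at 39.0 FPKM in CLP, its highest mean.

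Foxo3 (ENSMUSG00000048756, chr10:42181841-42276755, minus strand) encodes a transcription factor that drives late erythroid and autophagy genes. It was at 62.5 and 51.8 FPKM in the liver libraries, 3.02 and 2.47 FPKM in the spleen libraries, 7.30 and 7.39 FPKM in labelled MEP and 11.6 and 9.90 FPKM in labelled CMP. The 4 populations did not overlap and spleen Ter was the lowest. HSC, the control and CLP were at 15.9, 14.9 and 11.3 FPKM. Foxo4 had the same extremes, with 30.01 FPKM in liver Ter and 1.53 FPKM in spleen Ter, while Foxo1 was at 0.0918 FPKM in liver Ter, 18.0 FPKM in spleen Ter and 48.4 FPKM in the control.

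The first comparison asks how Ter cells of the tumour-bearing spleen differ from Ter cells of embryonic liver taken with the same gate. Of the 8 organelle clearance genes tested, 5 were lower in spleen Ter and none was higher, and Bnip3l, also lower in mean, missed the threshold. Trim10 fell by 5.63 on the log2 scale (SE 1.13, adjusted p = 0.00407, limma), Trim58 by 4.19 (SE 0.46, adjusted p = 0.000256), Foxo3 by 3.95 (SE 0.17, adjusted p = 8.1e-06), Ube2o by 2.86 (SE 0.36, adjusted p = 0.00048) and Ulk1 by 2.73 (SE 0.19, adjusted p = 3.58e-05). Over all genes tested, 54.5% were called, 11.7% lower and 42.8% higher in spleen Ter, and the median log2 fold change was 0.79, against -2.79 over the 8 members. All 5 stayed called lower without spleen library A and without library B. Trim10 then differed by -7.66 and -3.59, Trim58 by -4.95 and -3.44, Ube2o by -3.43 and -2.29, Foxo3 by -4.06 and -3.85, and Ulk1 by -2.60 and -2.86.

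Bnip3l differed by -1.01 (SE 0.43, adjusted p = 0.0721) and was not called. It was called lower without spleen library A (-1.76) and under each of 3 other scalings (-2.23 to -1.52), and its difference was -0.26 without library B, short of the required fold. Map1lc3b differed by 0.97 (SE 0.23, adjusted p = 0.00913), under the required fold, by 0.68 without library A, by 1.26 and with a call without library B, and by -0.22 under median-of-ratios scaling. Alox15 differed by 1.38 (SE 0.74, adjusted p = 0.138), with 2.62 and a call without library A and 0.13 without library B. Xpo7 was tested once for each split of its liver mean: it was lower in spleen Ter in 6 of 7 splits, and the split that missed the threshold gave the liver libraries 284 and 2.20 FPKM (log2 difference -2.47, adjusted p = 0.28). The 3 splits whose libraries lay within 2-fold gave -4.72 to -4.67. The values over all genes depended on the scaling. Over the 12957 genes the median moved to 0.13 (median-of-ratios), -0.05 (quantile) and 0.33 (totals without globin). The share of calls that were higher in spleen Ter was 53.6%, 49.1% and 62.1%, against 78.6%. Median-of-ratios and quantile scaling even out the libraries by design, so these values cannot show which scaling is right. The members lower in spleen Ter numbered 6 of 8 under each of the 3 scalings. Over the 12957 genes 3062, 3089 and 2407 were then called lower, against 1512.

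The members did not sit at one common share of their liver level in the spleen. In spleen library A, Foxo3, Trim58, Xpo7 and Trim10 were at 5.28%, 6.16%, 7.39% and 8.11% of the liver mean, Ulk1 at 10.7%, Ube2o at 19.6% and Bnip3l at 83.0%. The 11 erythroid markers in the same library ranged from 1.44% to 22.4%, with a median of 4.74%. In library B, Trim58, Trim10 and Xpo7 were at 0%, 0.308% and 1.10%, whereas Foxo3, Ube2o, Ulk1 and Bnip3l were at 4.32%, 8.39%, 13.4% and 29.0%, and the erythroid markers ranged from 0.00767% to 1.98%. Map1lc3b was at 247% and 163% of its liver mean. These shares are descriptions of 1 library each.

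**Figure D2:**
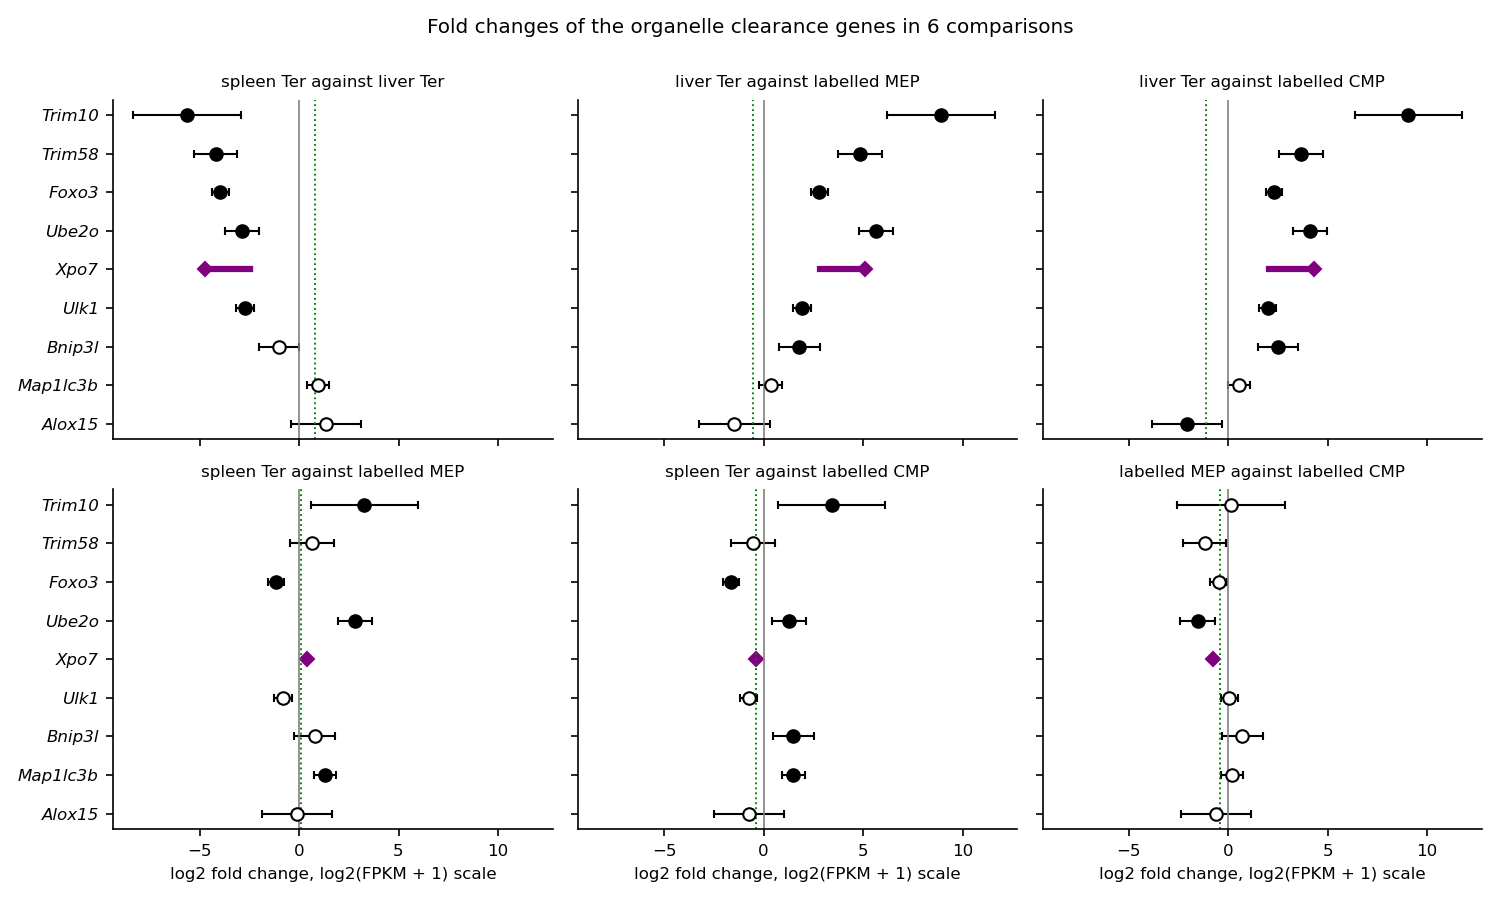
Log2 fold change of each organelle clearance gene in the 6 comparisons, with its 95% interval from limma; filled points were called. For Xpo7 the purple bar spans the 7 splits of the liver mean and the diamond is the most even one, and the dotted green line is the median of all genes. In spleen Ter against liver Ter the points run from -5.63 for Trim10 to 1.38 for Alox15.

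Within the spleen the members parted along the line between the 2 libraries. Trim10 was 26.3-fold higher in library A than in B (95% counting interval 20.1 to 35.2), Xpo7 6.71-fold (6.00 to 7.53), Bnip3l 2.87-fold (2.73 to 3.01), Ube2o 2.34-fold (2.13 to 2.56) and Map1lc3b 1.51-fold (1.45 to 1.58). Trim58, with 61 fragments in A and none in B, had a lower bound of 15.4-fold on the same interval, and its level in A was 19.6-fold the value of 3 fragments in B. Foxo3 was 1.22-fold higher in A (1.04 to 1.44) and Ulk1 1.26-fold higher in B (1.07 to 1.47). Alox15 went the other way and was 15.1-fold higher in B (9.34 to 25.8). The intervals cover counting error within these 2 libraries only. The erythroid markers moved with Trim10, Xpo7 and Trim58, with a summed level 15.98-fold higher in A and no marker higher in B. The macrophage and monocyte markers moved with Alox15, 3.8-fold higher in B in sum. So did 3 of 3 recovered markers of large peritoneal type macrophages (45.2 against 19.7 FPKM). The eosinophil markers summed to 128 FPKM in A and 51.6 FPKM in B. The 5 recovered neutrophil markers summed to 2028 and 1297 FPKM, with 4 higher in A and 1 higher in B. Other lists were higher in B too: 8 of 8 B cell markers (1512 against 1149 FPKM in sum), 7 of 8 T cell markers (580 against 459 FPKM), 7 of 8 megakaryocyte and platelet markers (116 against 81.7 FPKM) and 6 of 6 hepatocyte markers (11.8 against 7.08 FPKM). The marker sums were not rescaled either, so small differences between the libraries depend on the scaling as well. The part of these cell types in the members' values was not tested.

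**Figure D3:**
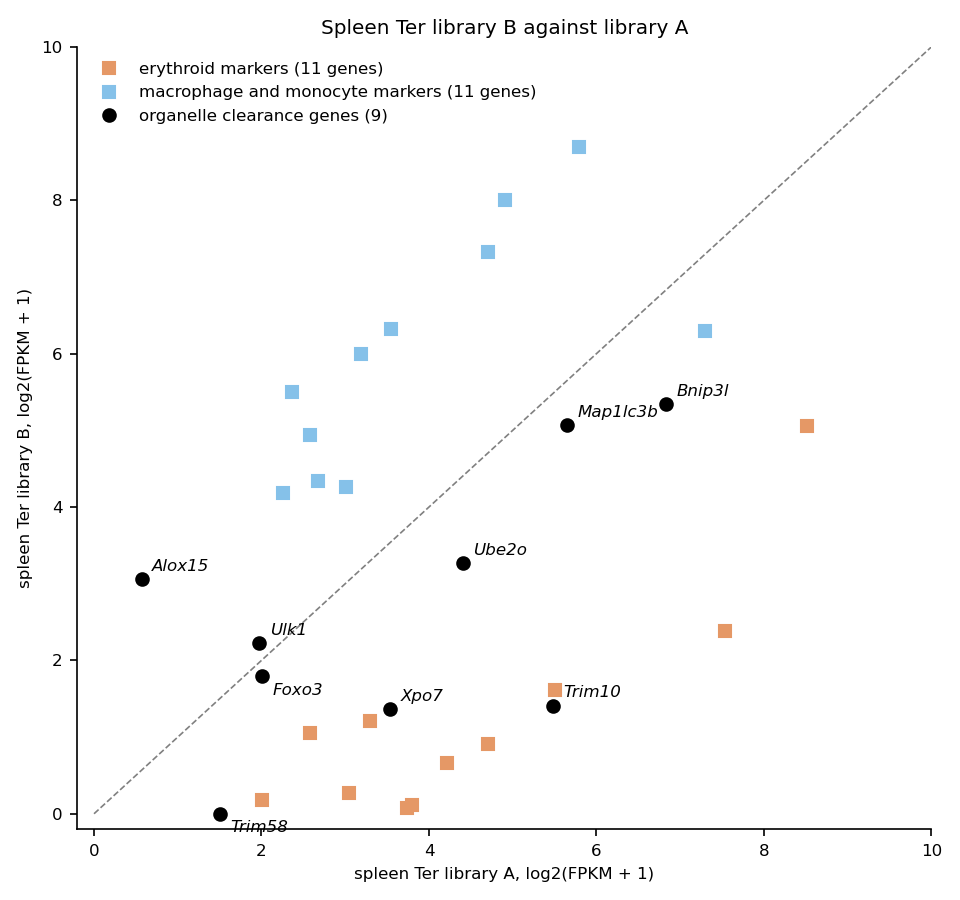
Level in spleen Ter library B against library A, as log2(FPKM + 1), for the 9 organelle clearance genes (black), 11 erythroid markers (orange squares) and 11 macrophage and monocyte markers (blue squares). The dashed line marks equal levels. Trim10, at 43.5 and 1.65 FPKM, lies among the erythroid markers, and Alox15, at 0.486 and 7.31 FPKM, lies on the side of the macrophage markers.

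Against bone marrow, liver Ter cells held far more of most members. Against labelled MEP, 6 of 8 tested members were higher in liver Ter and none was lower, where 41.9% of all genes were called, 8.71% higher and 33.2% lower in liver Ter. Trim10 was higher by 8.92 on the log2 scale (SE 1.13, adjusted p = 0.000628), Ube2o by 5.66 (SE 0.36, adjusted p = 3.19e-05), Trim58 by 4.83 (SE 0.46, adjusted p = 0.000163), Foxo3 by 2.80 (SE 0.17), Ulk1 by 1.91 (SE 0.19) and Bnip3l by 1.80 (SE 0.43, adjusted p = 0.0109). Map1lc3b (0.35, adjusted p = 0.25) and Alox15 (-1.47, adjusted p = 0.135) were not called. Bnip3l missed the threshold when either library of liver Ter or of labelled MEP was left out (adjusted p between 0.0503 and 0.0634), and 7 members were called, Alox15 as lower, in a fit without the spleen libraries. With median-of-ratios scaling Map1lc3b was called as well (1.44). The median of all genes was -0.54 and that of the members 2.35.

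Against labelled CMP, 6 of 8 members were higher in liver Ter and 1 was lower, where 59.8% of all genes were called, 6.97% higher and 52.8% lower. The 6 were the same genes as against labelled MEP. Trim10 was higher by 9.05 (SE 1.13, adjusted p = 0.000415), Ube2o by 4.12, Trim58 by 3.65, Bnip3l by 2.498, Foxo3 by 2.31 and Ulk1 by 1.97, the last with an SE of 0.19 and an adjusted p of 0.000127. Alox15 fell by 2.10 (SE 0.74, adjusted p = 0.0369), and that call was lost when any 1 library of liver Ter or labelled CMP was left out and under 2 of 3 other scalings. Map1lc3b (0.53, adjusted p = 0.0803) was called higher under each of the 3 (1.27 to 2.29). For Xpo7, 6 of 7 splits gave a call against each population, and all 7 gave log2 differences from 2.84 to 5.10 against labelled MEP and from 2.06 to 4.32 against labelled CMP. The fitted value of Trim10 rests on the pseudocount, because labelled CMP held 1 fragment in all. The comparisons share the liver libraries.

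Spleen Ter cells differed from the bone marrow populations in part of the members, and in both directions. Against labelled MEP, 3 of 8 were higher in spleen Ter and 1 was lower, where 42.6% of all genes were called, 23.2% higher and 19.4% lower. Ube2o was higher by 2.81 (SE 0.36, adjusted p = 0.000737), Map1lc3b by 1.32 (SE 0.23, adjusted p = 0.00307) and Trim10 by 3.29 (SE 1.13, adjusted p = 0.0425), and Foxo3 was lower by -1.16 (SE 0.17, adjusted p = 0.00145). Against labelled CMP, 4 were higher and 1 lower, where 42% of all genes were called, 13.9% higher and 28.1% lower. The higher ones were Trim10 by 3.42 (SE 1.13, adjusted p = 0.0376), Map1lc3b by 1.496, Bnip3l by 1.49 and Ube2o by 1.26, and Foxo3 fell by 1.65 (SE 0.17, adjusted p = 0.000351). Ulk1 differed by -0.82 and -0.76 with adjusted p of 0.00865 and 0.0119, short of the required fold. Xpo7 was not called in either, with differences of 0.38 and -0.40. The counts depended on the scaling. With totals without globin 1 member was higher and 2 were lower than in labelled MEP, and 1 was higher and 1 lower than in labelled CMP. Over all 12957 genes 2283 were then called higher and 3327 lower than in labelled MEP. Against labelled CMP these were 1679 and 3634. Trim10 was not called against either population under any of the 3 other scalings (adjusted p between 0.0533 and 0.0626).

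The 2 spleen libraries decided much of this. Without library A, Trim10 differed from labelled MEP by 1.25 and Bnip3l by 0.035, and without library B by 5.32 and 1.53. Against labelled CMP, Trim10 differed by 1.39 without A and 5.46 without B. Ube2o differed from labelled MEP by 2.24 and 3.38. Map1lc3b was called in all 4 of these fits, at 1.03 and 1.61 against labelled MEP and 1.21 and 1.79 against labelled CMP. Ulk1 was called in none of them, at -0.69 and -0.94 against labelled MEP and -0.63 and -0.89 against labelled CMP. Trim58 differed from labelled MEP by -0.11 without library A and 1.40 without B, and from labelled CMP by -1.30 and 0.21. Alox15 differed from labelled MEP by 1.15 without library A and -1.33 without B, and from labelled CMP by 0.52 and -1.96. Against labelled CMP, Bnip3l and Ube2o were not called without library A (0.74 and 0.69), and they and Trim10 were not called without either labelled CMP library, where Map1lc3b and Foxo3 stayed called. Foxo3 was lower than in either bone marrow population without A (-1.27 and -1.76) and without B (-1.05 and -1.54), and was called each time.

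Between the 2 bone marrow populations 1 of 8 members was called, and 31.5% of all genes were, 7.33% higher and 24.2% lower in labelled MEP. Ube2o was lower in labelled MEP by -1.54 (SE 0.36, adjusted p = 0.0126). Trim58 differed by -1.19 (SE 0.46, adjusted p = 0.0735) and Foxo3 by -0.49 (SE 0.17, adjusted p = 0.0569). The other 5 tested genes differed by -0.63 to 0.70, and the median of all genes was -0.41. Without the spleen libraries in the fit, Ube2o (adjusted p = 0.000647) and Trim58 (adjusted p = 0.00205) were both called. Ube2o was not called under the 3 other scalings, where it differed by -1.27 to -0.94, nor without either labelled MEP library or labelled CMP library A (-1.60 to -1.40, adjusted p between 0.062 and 0.0806).

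Among the control, HSC and CLP, whose means have no estimate of error, Alox15 and Trim58 differed most. The HSC and CLP columns also held markers of neutrophils, B cells and macrophages, and the part of those cells in the levels was not tested. Alox15 was 31.8-fold higher in HSC and 16.8-fold higher in CLP than in the control, and Trim58 was 28.8-fold and 15.3-fold higher, the latter from a control mean of 0.030 FPKM. Trim10 was 11.5-fold higher in CLP than in HSC at 0.839 against 0.0731 FPKM. Bnip3l was 1.77-fold higher in the control than in HSC. The other 5 genes differed by 1.65-fold or less among the 3.

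The pathway partners of the members gave a mixed picture in spleen Ter against liver Ter, where 42.8% of all genes were called higher and 11.7% lower. In numbers, 5547 of 12957 were higher and 1512 lower. Under the other scalings these were 3544 and 3062 (median-of-ratios), 2976 and 3089 (quantile) and 3939 and 2407 (totals without globin). The list counts under those scalings below stand beside these. Each list gene given below with a log2 fold change as called in this comparison kept its call and its direction without spleen library A and without library B. Of 15 tested genes of the ubiquitin system of erythroid maturation, 8 were lower in spleen Ter and 2 were higher, with a median of -1.44. Ranbp10 (-3.74), Gid8 (-3.04) and Rmnd5a (-1.96), which encode parts or relatives of the CTLH ubiquitin ligase, changed most among the called genes, and Ranbp10 held 155 and 139 FPKM in liver Ter against 10.02 and 10.2 FPKM in spleen Ter. Ube2l6 was at 548 FPKM in liver Ter and at 345 and 31.6 FPKM in the spleen libraries, and its difference of -2.37 was not called (adjusted p = 0.0617; -4.07 and called without library A, -0.67 and not called without B). Under the other scalings 9 to 11 of these genes were lower and up to 1 higher.

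Of 12 tested genes of enucleation and chromatin condensation, 7 were lower in spleen Ter and 2 higher (median -1.62, and 7 lower under each other scaling). Tmod1, which caps actin filaments of the red cell membrane skeleton, fell by 4.87, the cell cycle factor gene E2f2 by 4.70 and the formin gene Diaph3 by 3.94. Tmod1 was at 53.0 and 49.4 FPKM in liver Ter and at 1.17 and 0.47 FPKM in spleen Ter. In vesicle release and ribosome rescue, 2 of 8 were lower, the haem-regulated kinase gene Eif2ak1 (-3.20) and the ribosome rescue gene Pelo (-1.84), and none was higher; 5 or 6 were lower under the other scalings.

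The autophagy lists did not move one way, and their shares of genes higher in spleen Ter, 25% to 53.3%, stood on both sides of the 42.8% over all genes. Of 18 genes of initiation and nucleation, 6 were higher and 3 lower in spleen Ter, among them Atg101 (3.40) and Pik3r4 (2.87) higher and Wipi1 (-2.81) lower. Of 14 genes of the ATG8 proteins and their conjugation, 5 were higher and 3 lower, with Atg3 (3.20), Atg10 (2.83) and Atg5 (2.76) changing most. Of 12 mitophagy and autophagy receptors, 3 were higher and 4 lower, with Tecpr1 (2.90), Bcl2l13 (-2.48) and Fundc1 (2.44) at the extremes. All 8 genes of the lysosome list that were called, of 15 tested, were higher in spleen Ter, led by Tfeb (3.15) and Ctsl (3.09), a share of 53.3%. The median of the receptors was -0.14 without spleen library A and 0.19 without library B. That of the lysosome list was 1.65 and 0.37, and that of all genes 1.01 and 0.57. The counts above moved with the scaling. With median-of-ratios scaling 4 were higher and 10 lower for initiation, and 4 and 5 for the ATG8 list. They were 2 and 6 for the receptors, and 5 and 3 for the lysosome list. The 11 genes named here kept their call under each of the 3 other scalings.

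The nearest relatives by family varied as widely. Of 12 FOXO and FOXO3-linked genes, 5 were higher in spleen Ter (Foxo1 by 4.07 and Irs2 by 3.09 the most) and 3 lower (Foxo4 by -3.63 the most), and with median-of-ratios scaling 2 were higher and 6 lower. Of 14 other TRIM genes, 5 were higher (35.7%) and 2 lower (14.3%), close to the 42.8% and 11.7% over all genes, with the interferon-linked Trim30a (4.33) and Trim12a (3.80) and Trim35 (3.72) changing most, against 4 and 6 with median-of-ratios scaling. Of 16 exportins and importins beside Xpo7, 1 was higher and 4 lower, led by Kpnb1 (-2.07), Ipo13 (-1.53) and Ipo5 (-1.34). Under the other scalings 11 or 12 were lower, where 2407 to 3089 of all 12957 genes were. The median of this list was -0.77, and -0.96 without spleen library B. Of 10 dynein and dynactin genes, 2 were higher, Dynlrb1 (2.12) and Dynlt3 (1.33), and 1 lower, Pafah1b1 (-1.54). With median-of-ratios scaling none of the 10 was higher and 6 were lower. The median of this list was -0.0074, and -0.42 without spleen library B. Of 4 lipoxygenase genes, 3 were higher, Alox5ap (4.08), Alox5 (2.13) and Alox12 (1.72). Of 4 translation factor and ribosomal protein genes, 2 were higher, Eif4ebp1 (1.77) and Rpl5 (1.46), and with median-of-ratios scaling neither was.

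In liver Ter against labelled MEP, where 8.71% of all genes were higher and 33.2% lower, the same lists gave other counts. With median-of-ratios scaling 2746 of all 12957 genes were higher and 2887 lower, and with quantile normalization 2416 and 2504. Of the 15 ubiquitin system genes, 9 were higher in liver Ter and 3 lower, with Ube2l6 (4.40) and Ranbp10 (4.10) the most raised and Ranbp9 (-3.03) the most reduced. Of the 12 receptors, 4 were higher, led by Calcoco1 (2.31), Pink1 (1.58) and Nbr1 (1.54), and 1 lower, and with median-of-ratios scaling 7 were higher and none lower. In the lysosome list 9 of 15 were lower in liver Ter and none higher, led by Lamp2 (-3.53), and with median-of-ratios scaling 5 were lower and 2 higher. Of the ATG8 list 4 were higher and 6 lower, with Atg4a (2.54), Atg3 (-3.36) and Atg7 (-2.51) changing most, and with quantile normalization 5 were higher and 3 lower. The antioxidant enzyme gene Cat, listed with FOXO3-linked genes, was higher by 4.46.

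**Figure D4:**
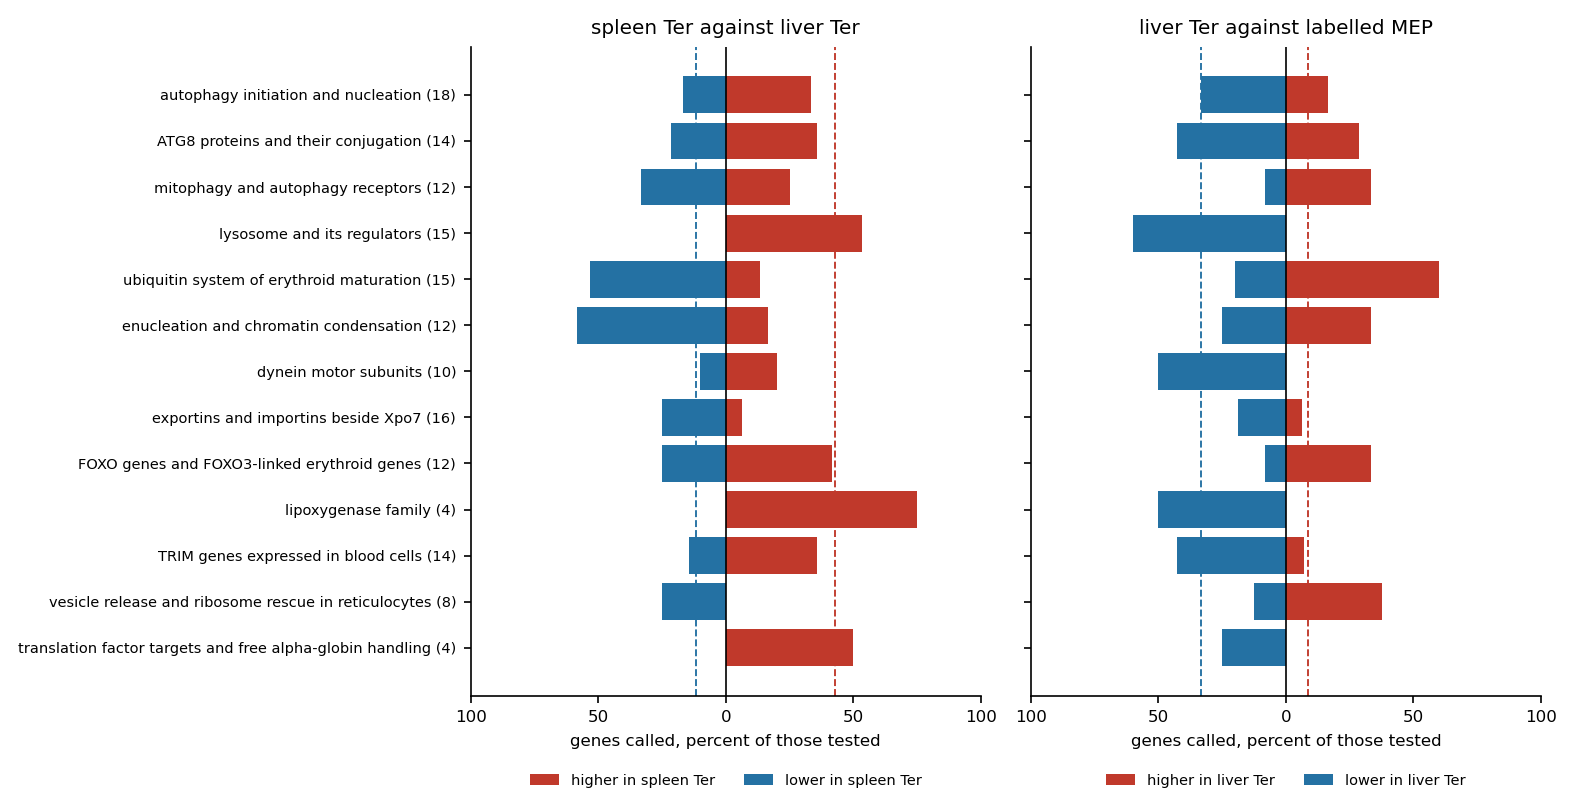
Share of the tested genes of each pathway list that were called higher (red) or lower (blue) in spleen Ter against liver Ter (left) and in liver Ter against labelled MEP (right), in percent, with the number tested in brackets. Dashed lines are the shares over all 12957 genes, 42.8% higher and 11.7% lower on the left and 8.71% and 33.2% on the right. The ubiquitin system and enucleation lists extend furthest to the lower side on the left.

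Genes with the most similar pattern over the 7 columns were looked for among 8615 genes with at least 5 FPKM in 1 column. The r values describe 7 group means on the FPKM scale, 3 of which (control, HSC and CLP) were made by the other procedure, a difference that enters each r. Closest to Trim10 were Slfn14 (r = 0.998), Chac2 (0.99) and the blood group gene Rhd (0.99), and over the 8 recovered libraries r was at least 0.98 for each. Closest to Trim58 were Pheta2, Abcb4 and Ufsp1 (each r at least 0.99), and to Xpo7 Tom1l1, Spire1 and Ufsp1 (0.99 each). Ube2o was closest to Cd59a, which encodes an inhibitor of complement on red cells (0.99), Fam220a and Mgst3 (0.98 each), Ulk1 to Adam10 (0.98), Herc1 and Hectd4 (0.97 each), and Bnip3l to Tprgl, Tent5c and Gpcpd1 (0.98 each). Among the genes closest to Foxo3 were Psme4 (0.98) and Ssbp3 (0.97). Map1lc3b was closest to Eif1 (0.98), Maf1 (0.96) and the platelet chemokine gene Ppbp (0.94), and Alox15 to Vma21 (0.96), Ptgs2 (0.94) and Ifitm2 (0.93). Over the recovered libraries r was lower for several of these pairs: 0.62 and 0.77 for Xpo7 with Tom1l1 and Ufsp1 (6 libraries), 0.66, 0.71 and 0.83 for Alox15 with Ifitm2, Vma21 and Ptgs2, 0.67 for Map1lc3b with Maf1, and 0.80 and 0.88 for Bnip3l with Tprgl and Gpcpd1 (8 libraries). Between members, r over the 7 columns was highest for Trim58 with Xpo7 (0.99), Ulk1 with Foxo3 (0.92) and Bnip3l with Trim10 (0.92). Alox15 was negative with each of the other 8 members. Trim58 and Xpo7 had means of 29.9 and 143 FPKM in liver Ter and at most 1.48 and 6.62 FPKM elsewhere. An r between genes of this kind rests largely on that 1 column.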

How the data were processed

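Gene expression had been measured by RNA sequencing in 14 samples, with libraries made from total RNA with a TruSeq RNA kit, per the labels' protocols. The authors deposited FPKM values as 1 mean per group of 2 samples. The genome build is mm10, per the submitters' processing notes. What aligned and counted the reads, and on which annotation, is not given in the sources used here. Symbols, exon lengths and coordinates were taken from GENCODE M21 (GRCm38), where 49324 of 49583 gene IDs were found.

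In the columns of spleen Ter, liver Ter, MEP and CMP, 91.2% to 93.9% of low values fell on multiples of the value of 1 fragment, to within 0.005, against 7.09% to 11.8% in the control, HSC and CLP. Each mean of the first 4 was resolved into 2 whole fragment counts, which succeeded in all 8 libraries for 13759 of the 14049 genes whose mean reached 1 FPKM (97.9%). For 2499 of them the length was found from the steps, and for the liver values of Xpo7 7 splits remained. Between 34.4% and 65.2% of a library's fragments lie in recovered genes. The columns do not say which recovered library is which sample, and A is the deeper.

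The test was limma 3.58.1 (R 4.3.3, eBayes with trend, 1 coefficient per group) on log2(FPKM + 1), for genes that reached 1 FPKM in 2 or more libraries. All 4 groups enter 1 fit and share 1 estimate of the spread, with 4 residual and 2.6 prior degrees of freedom, so where a gene differs between the spleen libraries the SE can be too small for spleen comparisons and too large for the others. Counting intervals for a ratio are exact (Clopper-Pearson). Alternatives were a pseudocount of 0.1, no filter or a filter of 5 FPKM, 3 other scalings (median-of-ratios, quantile, totals without globin genes), only the groups compared, and leaving out each library; fits on annotated lengths only, fits without the spleen libraries, the Xpo7 splits and the lists without each spleen library were added after seeing the data.

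The members, the pathway and marker lists and the rule for named genes were chosen with earlier results of these data known. All members are named. List genes named are up to 3 called genes with the largest change per list, and paralogs of members by level. The genes alike in pattern are the 3 named coding genes with the highest Pearson r of log2(mean FPKM + 1). A gene that these rules name in 1 list and a gene alike in pattern to 1 member are not reported here.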

Additional observations from a re-analysis of the deposited data

How the results depend on the processing

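The numbers of members called kept within 1.5-fold of their value under every alternative run for spleen Ter against liver Ter (5 to 7), liver Ter against labelled MEP (5 to 7) and liver Ter against labelled CMP (6 to 8). For spleen Ter against labelled MEP, 4 members were called, 3 to 7 when 1 library was left out, the 7 without spleen library B. For spleen Ter against labelled CMP, 5 were called, and 2 with no filter, with totals without globin and with only the 2 groups in the fit. The number also moved with 1 library left out. Over all genes 1807 were higher and 3639 lower there. These were 1776 and 3459 of 28908 with no filter, 1679 and 3634 with totals without globin, and 1493 and 2953 with only the 2 groups. For labelled MEP against labelled CMP, 1 was called, 0 under each other scaling, and 2 with only the 2 groups or without the spleen libraries. Over all genes 950 were higher and 3134 lower there. Under the other scalings these were 1822 and 1168 (median-of-ratios), 1572 and 1618 (quantile) and 1363 and 2099 (totals without globin). They were 1001 and 3259 with only the 2 groups, and 1010 and 3283 without the spleen libraries. For spleen Ter against labelled MEP, 3004 of all 12957 genes were higher and 2516 lower with every library. The median over all genes was 0.092 there, and -0.098 without spleen library B. For liver Ter against labelled MEP, 1128 were higher and 4307 lower, and 2746 and 2887 with median-of-ratios scaling. For liver Ter against labelled CMP these were 903 and 6844, and 2718 and 2572. For spleen Ter against liver Ter they were 5547 and 1512, and 3544 and 3062.

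Trim10 lost its call in spleen Ter against labelled MEP and labelled CMP with no filter, each other scaling, only the 2 groups, or without either bone marrow library (adjusted p between 0.0533 and 0.147). Directions that turned were Map1lc3b in spleen Ter against liver Ter with median-of-ratios scaling (-0.22), Trim58 against labelled MEP (-0.11 without spleen library A, 1.40 without B) and against labelled CMP (-1.30 and 0.21), Alox15 against labelled MEP (1.15 and -1.33) and against labelled CMP (0.52 and -1.96), and, between the bone marrow populations, Ulk1 (-0.068 to 0.19 with 1 library left out), Map1lc3b (-0.031 to 0.38) and Foxo3 (0.17 with median-of-ratios scaling). None of these had been called with every library in the fit and the scaling to total fragments. Calls in the fits with 1 library left out are not covered by this. The cause was not tested.

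The share of calls that were higher moved with the scaling in the other comparisons too. With median-of-ratios scaling it was 48.7% for liver Ter against labelled MEP (20.8% otherwise), 51.4% for liver Ter against labelled CMP (11.7%), 59% for spleen Ter against labelled CMP (33.2%) and 60.9% between the bone marrow populations (23.3%). With totals without globin it was 40.7% for spleen Ter against labelled MEP (54.4%).

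No paired analysis was possible because the columns carry no replicate numbers. With 1 library of a group left out, the lone library is assumed to vary like the other groups. Levels under 10 fragments, as for Trim10 and Trim58 in labelled MEP, are limited by depth.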
